A study of Mus musculus with 2 samples.

Results

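Follicular helper T cells are CD4 T cells that enter B cell follicles and help B cells form germinal centres, where antibody genes are mutated and selected. They do so through secreted interleukin-21, through the CD40 ligand on their surface and through long contacts that need the adaptor protein SAP. CD28 and ICOS are costimulatory receptors that supply the second signal beside the T cell receptor, and PD-1 is an inhibitory receptor of the same family that follicular helper cells carry at high density. The genes described here are 8 of this programme, chosen by symbol: Il21, Pdcd1, Icos, Sh2d1a, Maf, Cd40lg, Cd28 and Cd200. All 8 were found among the 22216 gene rows of the deposited table, each in 1 row.

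Whole spleen RNA was sequenced from mice of 2 genotypes labelled NOD.g7 and NOD.L7, with 1 library per genotype, each from the pooled spleens of 3 mice. The NOD mouse is an inbred strain prone to autoimmune diabetes. The labels give no age, sex or treatment and do not explain g7 or L7. In the deposited table the column named NOD.LC7 was read as NOD.L7, and the column named NOD as NOD.g7. Levels are in RPKM, that is, the mapped sequence of a gene divided by gene length and by the total mapped sequence. They rested on about 9.13 Gb (NOD.g7) and 12.1 Gb (NOD.L7) of mapped sequence, depths estimated from the steps of low RPKM values. With 1 library per genotype there is no measure of spread between mice, so no p-value can be given, and what is compared is a pair of libraries. Intervals are 95% Clopper-Pearson intervals of the ratio from approximate fragment numbers, and intervals of a level are exact Poisson ones. Both cover counting error only.

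Of the 8 genes, 7 were higher in NOD.L7 and Cd200 was lower. The largest ratios were those of Il21, the cytokine, at 2.20, Maf, a transcription factor, at 1.74, and Pdcd1, which encodes PD-1, at 1.63. Icos and Cd40lg were higher by 1.36 and 1.26, and Sh2d1a and Cd28 were close to equal, at 1.05 and 1.03. Cd200, a surface glycoprotein that signals to an inhibitory receptor, was 1.41-fold lower. The counting interval of the ratio left out 1 for 6 of the 8, the exceptions being Sh2d1a and Cd28.

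To compare with the whole table, genes were kept where either library reached an RPKM of 1, which left 11141 genes and 7 of the 8. Il21 did not reach that level, and the other 7 were above it in both libraries. The main size rule was an absolute log2((NOD.L7 RPKM + 1)/(NOD.g7 RPKM + 1)) of at least 1. No kept gene of the 8 passed it, and 0.709% of all kept genes did. A smaller difference, called the 25% rule here, was an RPKM at least 25% higher in NOD.L7 or, for the inverse ratio, at least 20% lower. It was met upward by 4 of the 7, namely Maf, Pdcd1, Icos and Cd40lg, and by 8.64% of all kept genes. At least 1.5-fold higher were 2 of the 7, against 3.41% of all kept genes. Downward, Cd200 alone met the 25% rule, against 4.43% of kept genes, and none of the 7 was 1.5-fold lower, against 1.89%. The median log2 ratio was 0.31 over the 7 and 0.02 over all kept genes, and 6 of the 7 were above 0, as were 56.2% of all kept genes.

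**Figure D1:**
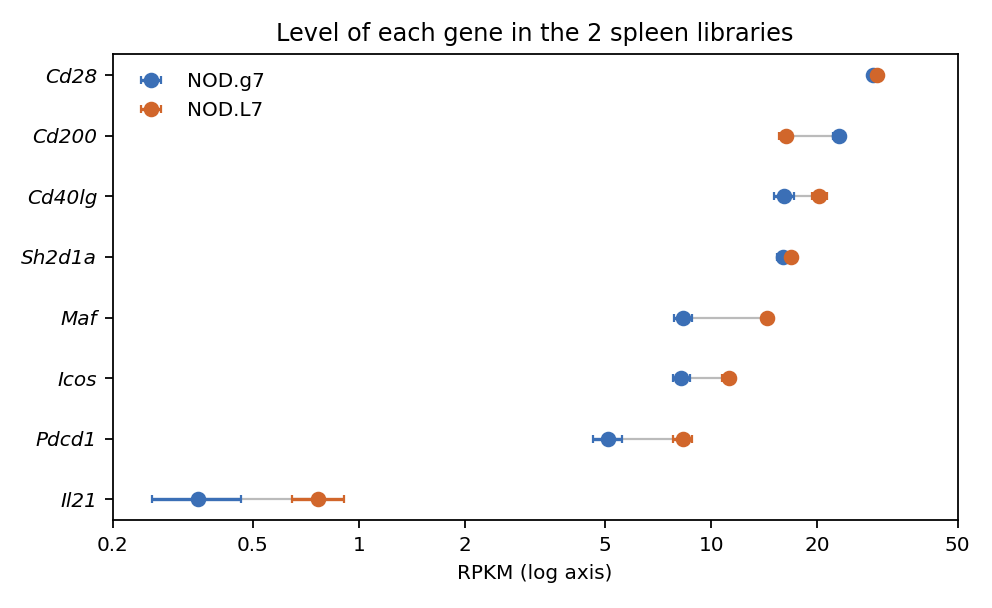
RPKM of each of the 8 genes (log axis) in the NOD.g7 and NOD.L7 spleen libraries, with the 95% counting interval of each level as the bar. Cd28 was the highest in both libraries, at 28.7 and 29.5, Il21 the lowest, at 0.349 and 0.767, and Cd200 is the gene whose NOD.L7 point lies to the left.

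Per length, Cd28 was the most abundant of the 8 in both libraries and Pdcd1 and Il21 the least. In NOD.g7 the order was Cd28, Cd200, Cd40lg, Sh2d1a, Maf, Icos, Pdcd1 and Il21. The level intervals of Cd40lg and Sh2d1a overlapped there, as did those of Maf and Icos. In NOD.L7 Cd200 came after Cd40lg and Sh2d1a, with its level interval of 15.6 to 16.9 overlapping that of Sh2d1a, 16.2 to 17.4. The order of the other 7 among themselves was the same in both libraries.

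Il21 (mm9, chromosome 3, 37121681 to 37131540) encodes the cytokine by which follicular helper cells drive germinal centre B cells and plasma cell formation. Its RPKM was 0.349 in the NOD.g7 library and 0.767 in that of NOD.L7, a ratio of 2.20 with a counting interval of 1.57 to 3.09. These values rest on about 49 and 142 fragments, the fewest of the 8. On the log2(RPKM + 1) scale the difference was 0.39, since a pseudocount of 1 is larger than both levels. Reads from Il21 cannot be told apart from those of Gm12534, which overlaps its exons on the opposite strand in the GENCODE annotation, because the strandedness of the libraries is not given in the sources used here. The same holds for Sh2d1a with Tenm1 and for Maf with Gm15655.

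The other T cell cytokines were mostly near 0. Of 13 listed, 3 were kept, 1 higher and 2 lower at a median log2 ratio near 0 (-0.0023), and none of the 3 met the 25% rule. Il2, a T cell growth factor gene that neighbours Il21 in the genome, was at 0.0711 and 0.199, a ratio of 2.79 from about 4 and 14 fragments with an interval of 0.83 to 11.0 that includes 1. Ifng, the interferon gamma gene, was at 1.06 and 1.32, Tnf at 12.6 and 11.4, and the lymphotoxin gene Lta at 22.6 in both.

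RefSeq promoter sequences (GRCm38.p6) were at hand for 3 of the 8 genes, Il21, Pdcd1 and Cd200, which stand for ratios above and below 1. The 250 bases before each start site are printed 5′ to 3′ along the gene's own minus strand so that the 3 can be compared. Capitals mark matches, on either strand, to the NFAT core GGAAAA, the MAF half-site TGCTGA, the AP-1 site TGANTCA and the E-box CACCTG. Il21 lies at chr3:37232637-37232886, Pdcd1 at chr1:94052554-94052803 and Cd200 at chr16:45409054-45409303.
Il21: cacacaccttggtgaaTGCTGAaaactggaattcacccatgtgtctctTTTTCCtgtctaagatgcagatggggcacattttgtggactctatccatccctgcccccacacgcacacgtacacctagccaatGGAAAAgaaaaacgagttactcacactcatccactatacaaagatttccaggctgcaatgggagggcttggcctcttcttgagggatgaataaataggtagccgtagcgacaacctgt
Pdcd1: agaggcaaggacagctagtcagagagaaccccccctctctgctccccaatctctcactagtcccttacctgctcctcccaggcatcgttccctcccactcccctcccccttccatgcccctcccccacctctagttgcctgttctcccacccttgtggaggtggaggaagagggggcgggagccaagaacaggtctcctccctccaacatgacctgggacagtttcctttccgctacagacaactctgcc
Cd200: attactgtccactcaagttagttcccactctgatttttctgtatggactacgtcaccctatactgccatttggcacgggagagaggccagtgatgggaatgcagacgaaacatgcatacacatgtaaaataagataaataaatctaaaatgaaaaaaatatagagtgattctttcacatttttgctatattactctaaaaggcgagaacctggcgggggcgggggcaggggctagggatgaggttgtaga

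In these windows Il21 held 1 MAF half-site and 2 NFAT cores, and neither of the other genes held any of the 4 motifs. Counting back from the start site, the MAF half-site of Il21 began at -234 and the NFAT cores at -202, on the opposite strand, and at -118. Over the same 250 bases of all 32851 promoters in the table, 20.4% held the NFAT core, 16.1% the MAF half-site, 6.75% the AP-1 site and 17.2% the E-box. No 2 of the matches in Il21 overlapped. A match describes the letters of the reference strain only.

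Maf (chromosome 8, 118227153 to 118230794), the transcription factor c-Maf, promotes Il21 and Il4 expression in T cells and is also made by macrophages. It was at 8.31 and 14.4 in the NOD.g7 and NOD.L7 libraries, a ratio of 1.74 with a counting interval of 1.62 to 1.86. Among all kept genes 0.996% had a higher log2 ratio than Maf at 0.73. Of 12 macrophage markers, listed like those of every list here with earlier results of these data known, all 12 were higher in NOD.L7. By the 25% rule 11 of them were higher. Their median log2 ratio was 0.73 and their summed RPKM was 358 and 583. The haemoglobin scavenger receptor gene Cd163 was at 5.26 and 13.0, and none of the 12 was at 0 in either library. The part of macrophage RNA in the Maf difference was not tested. In bulk RNA, more or fewer cells of a type and more or less RNA per cell cannot be told apart. This applies to every gene here.

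**Figure D2:**
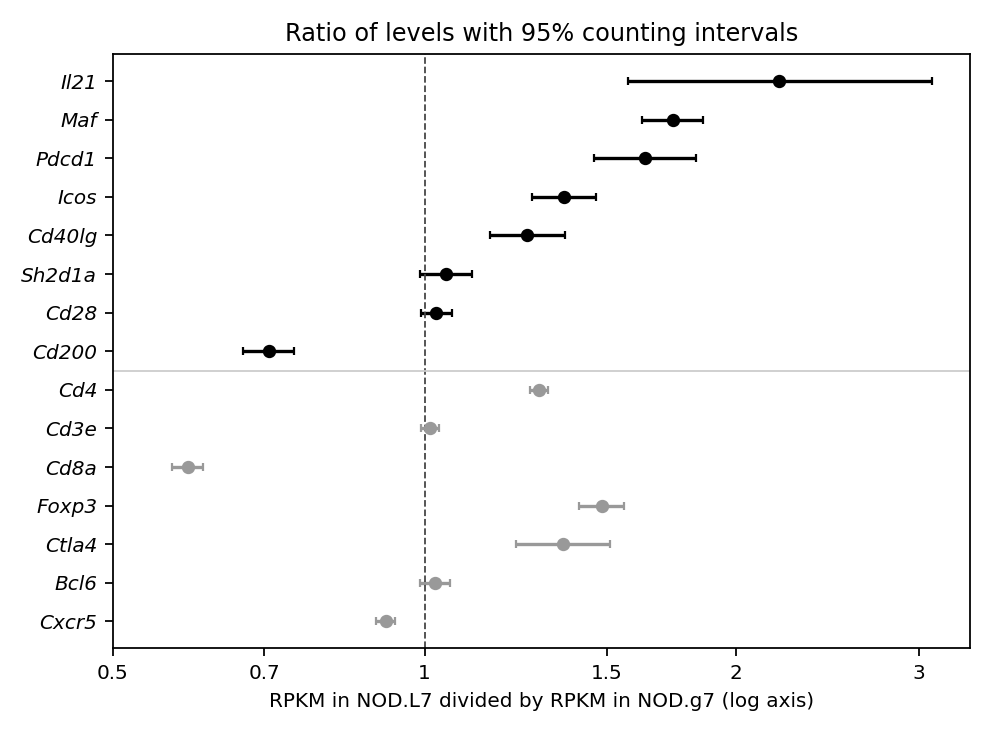
RPKM in NOD.L7 divided by RPKM in NOD.g7 (log axis) with 95% counting intervals, for the 8 genes (black) and for 7 genes named for comparison (grey). Il21 has the widest interval, 1.57 to 3.09, the interval of Cd200 lies below 1, and the intervals of Sh2d1a, Cd28, Cd3e and Bcl6 include 1.

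The 3 receptors of the CD28 family differed in size. Pdcd1 (chromosome 1, 95934882 to 95949130), the inhibitory receptor PD-1, was at 5.09 and 8.30, a ratio of 1.63 with an interval of 1.46 to 1.83. Icos (chromosome 1, 61034758 to 61057164), which sustains follicular helper cells through PI3-kinase, was at 8.22 and 11.2, a ratio of 1.36 with an interval of 1.27 to 1.46. Cd28 (chromosome 1, 60803232 to 60830203), carried by naive T cells, was at 28.7 and 29.5, a ratio of 1.03 with an interval of 0.99 to 1.06. The intervals of Pdcd1 and Icos thus lay above that of Cd28 and only just overlapped each other. Set against the level of Cd28 in the same library, first for NOD.g7 and then for NOD.L7, Icos stood at 28.6% and 38.0%, and Pdcd1 at 17.7% and 28.1%.

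Cd28 and Icos are neighbours on chromosome 1 with Ctla4, an inhibitory receptor gene of the same family, between them. Ctla4 was at 6.42 and 8.73, a ratio of 1.36 with an interval of 1.23 to 1.51, close in value to that of Icos. The nearest other kept genes were Raph1 on the Cd28 side, at a ratio of 1.11, and Nrp2 on the Icos side, at 1.04. Around Pdcd1, the log2 ratios of the 3 nearest kept genes on each side ran from -0.02 to 0.27, below the 0.61 of Pdcd1 itself. Those around Il21 ran from -0.15 to 0.21 and those around Maf from -0.08 to 0.31. Of the 6 such neighbours taken for each of the 8 genes, none passed the main size rule.

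Cd40lg (chromosome X, 54465320 to 54477219) encodes the CD40 ligand, which T cells show briefly after activation and which B cells need for germinal centres and class switching. It was at 16.1 and 20.3, a ratio of 1.26 with an interval of 1.16 to 1.37. The co-receptor gene Cd4, expressed by the same class of T cells, was at 106 and 136, a ratio of 1.29 with an interval of 1.26 to 1.32. Relative to Cd4 in the same library, Cd40lg was at 15.2% and 14.8%, and Icos at 7.77% and 8.22%. Pdcd1 was at 4.81% and 6.08% of the Cd4 level, Maf at 7.85% and 10.6%, and Il21 at 0.329% and 0.562%. Lower relative to Cd4 in NOD.L7 were Sh2d1a, at 15.1% and 12.3%, Cd28, at 27.1% and 21.6%, and Cd200, at 21.7% and 11.9%. Set against Cd3e, a gene of the pan-T cell list, Sh2d1a was at 0.107 and 0.111 of its level and Cd28 at 0.191 and 0.194. Cd200 was at 0.153 and 0.107 of the Cd3e level. Immediate early genes, which respond to activation and to tissue handling, were higher in 11 of 12 cases in NOD.L7, with 6 meeting the 25% rule, a median log2 ratio of 0.30 and a summed RPKM of 445 and 585. Their part in the differences of activation-induced genes such as Cd40lg was not tested.

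Sh2d1a (chromosome X, 39855785 to 39875252) encodes SAP, the adaptor that lets T cells signal through SLAM receptors and hold on to B cells. It was at 16.0 and 16.8, a ratio of 1.05 with an interval of 0.99 to 1.11. Of 10 genes listed for the SLAM receptors and their adaptors 9 were kept, 4 of them higher and 5 lower, with a median log2 ratio of -0.01. The 25% rule was met by Cd244, a receptor of NK and myeloid cells, higher at 9.91 and 13.7, and by Slamf7, lower at 18.9 and 14.2. Slamf6 was at 77.0 and 65.6, and the kinase gene Fyn, which binds SAP, at 63.8 and 70.1. NK cells also make SAP, and 10 of 11 NK and cytotoxic markers were lower in the library of NOD.L7 (median log2 ratio -0.74), with a summed RPKM of 306 and 177. Gzma, a granzyme of cytotoxic cells, was at 79.9 and 26.3, and no marker of that list was at 0. The part of NK cells in the Sh2d1a values was not tested.

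Cd200 (chromosome 16, 45382248 to 45409166) is carried by follicular helper cells and also by B cells and endothelium. The NOD.g7 library had an RPKM of 23.0 and the NOD.L7 library 16.3, a ratio of 0.71 with an interval of 0.67 to 0.75. Among all kept genes 1.72% had a lower log2 ratio than Cd200 at -0.47. Of 12 B cell markers 11 were lower, 4 by the 25% rule, at a median log2 ratio of -0.26, and their summed RPKM was 3048 and 2490, 1.22-fold lower in NOD.L7. The exception was Cr2, a complement receptor gene, at 148 and 152. Endothelial and stromal markers were mostly low: 3 of 11 were kept, at a median log2 ratio of 0.09, against 0.01 over all 11 without a filter. Pecam1, the 1 left at a filter of RPKM 5, was at 72.7 and 71.2 (log2 ratio -0.03), and Madcam1 was listed at 0 in NOD.g7. Cdh5 and Vwf, also kept, were far below Pecam1, at 0.957 and 1.09 and at 1.40 and 1.73. The parts of B cells and of endothelium in the Cd200 difference were not tested. Its neighbours went different ways, with Btla, an inhibitory receptor of B and T cells, at 135 and 98.3 and Gcet2, a germinal centre gene, at 1.21 and 2.16.

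The ligands and receptors that these proteins bind were measured in the same libraries, and 3 of 9 were higher in NOD.L7 while 6 were lower (median log2 ratio -0.06). Both ligands of CD28, made by activated B cells and myeloid cells, were higher. Cd80 was at 2.73 and 4.75, a ratio of 1.74 with an interval of 1.54 to 1.96, and Cd86 at 11.1 and 18.5, a ratio of 1.66 with an interval of 1.56 to 1.78. Cd200r1, the inhibitory receptor for CD200 on myeloid cells, was at 4.58 and 7.53, a ratio of 1.64 with an interval of 1.49 to 1.82. Thus for the pair Cd200 and Cd200r1 the ligand gene was lower and the receptor gene higher in NOD.L7.

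The other 6 partners had ratios below 1. Cd40, the receptor for the CD40 ligand, was at 47.5 and 34.2, a ratio of 0.72 with an interval of 0.70 to 0.75. Icosl, the ligand of ICOS, was at 72.6 and 61.0. Of the PD-1 ligands, Pdcd1lg2 was at 4.28 and 3.29 and Cd274 at 18.5 and 17.8. The ratio of Cd274 was 0.96, with an interval of 0.92 to 1.01 that includes 1. The interleukin-21 receptor genes Il21r and Il2rg were slightly lower, at 97.3 and 92.2 and at 284 and 272. Their ratios had intervals of 0.92 to 0.97 and of 0.94 to 0.97, both below 1. The macrophage and B cell lists, with the sums given above, differed in the same directions as Cd80, Cd86 and Cd200r1 and as Cd40 and Icosl, and their part in these differences was not tested.

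**Figure D3:**
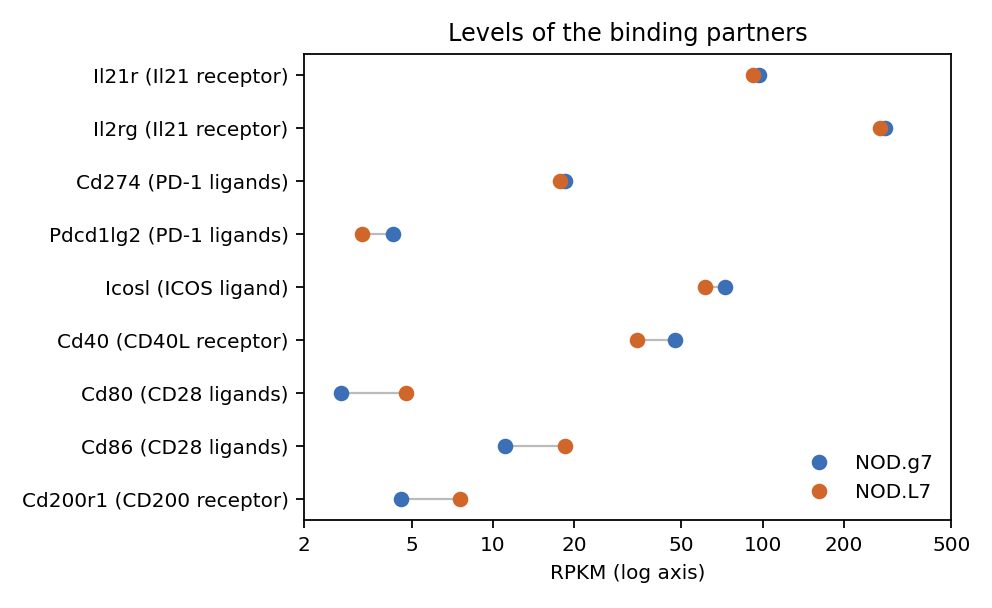
RPKM (log axis) of the 9 ligand and receptor genes that bind the proteins of the 8 genes, in the NOD.g7 and NOD.L7 libraries. Cd80, Cd86 and Cd200r1 are to the right in NOD.L7, at 4.75, 18.5 and 7.53, while Cd40, at 34.2, is to the left.

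Other genes of the follicular helper programme showed no common direction. Of 20 listed, 17 were kept, 10 higher and 7 lower (median log2 ratio 0.03). Bcl6, the factor that defines the fate, was at 34.7 and 35.6, a ratio of 1.02 with an interval of 0.99 to 1.06. It also stands in the germinal centre B cell list. Cxcr5, the follicle-homing receptor gene that B cells also express, was at 131 and 120.2. The part of B cells in these values was not tested. Higher by the 25% rule were Tox2, a nuclear factor of follicular helper cells, at 1.51 and 3.04 (ratio 2.01, interval 1.71 to 2.38), the transcription factor gene Batf at a ratio of 1.30 and Cxcr4 at 73.0 and 96.9, while Btla was lower.

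Of 13 genes that oppose the follicular helper fate or belong to other T cell states, 6 were higher and 7 lower, with a median log2 ratio near 0 (-0.0035). The 3 that met the 25% rule were all lower in NOD.L7, where 4.43% of all kept genes were lower by that rule. They were Klf2, a quiescence and trafficking factor, at 156 and 118, Tbx21, which encodes T-bet, at 9.81 and 6.78, and Foxp1, at 55.6 and 44.3. Prdm1, the Blimp-1 gene that represses Bcl6, was at 3.63 and 3.94. Tbx21 is also expressed by NK cells, whose markers were lower in the same library, and their part in the Tbx21 values was not tested. B cell markers were mostly lower there too, and the part of B cells in the Klf2 and Foxp1 values was not tested.

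Of 17 other costimulatory and inhibitory receptors, 11 were higher and 6 lower, with a median log2 ratio of 0.13. By the 25% rule 5 were higher, against 8.64% of all kept genes, and Btla was the 1 lower, against 4.43%. The 5 were Tigit, at 5.03 and 8.12, Havcr2, at 8.21 and 11.3, Lag3, at a ratio of 1.37, Tnfrsf25, at 8.17 and 10.9, and Ctla4. The part of cells other than T cells in these values was not tested. Tigit had a ratio of 1.61 with an interval of 1.37 to 1.91, near that of Pdcd1. Of 18 signalling genes downstream of these receptors, 14 were higher and 4 lower (median log2 ratio 0.04), and none met the 25% rule. Pik3cd, the PI3-kinase subunit used by ICOS, was at 115 and 123, a ratio of 1.07.

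**Figure D4:**
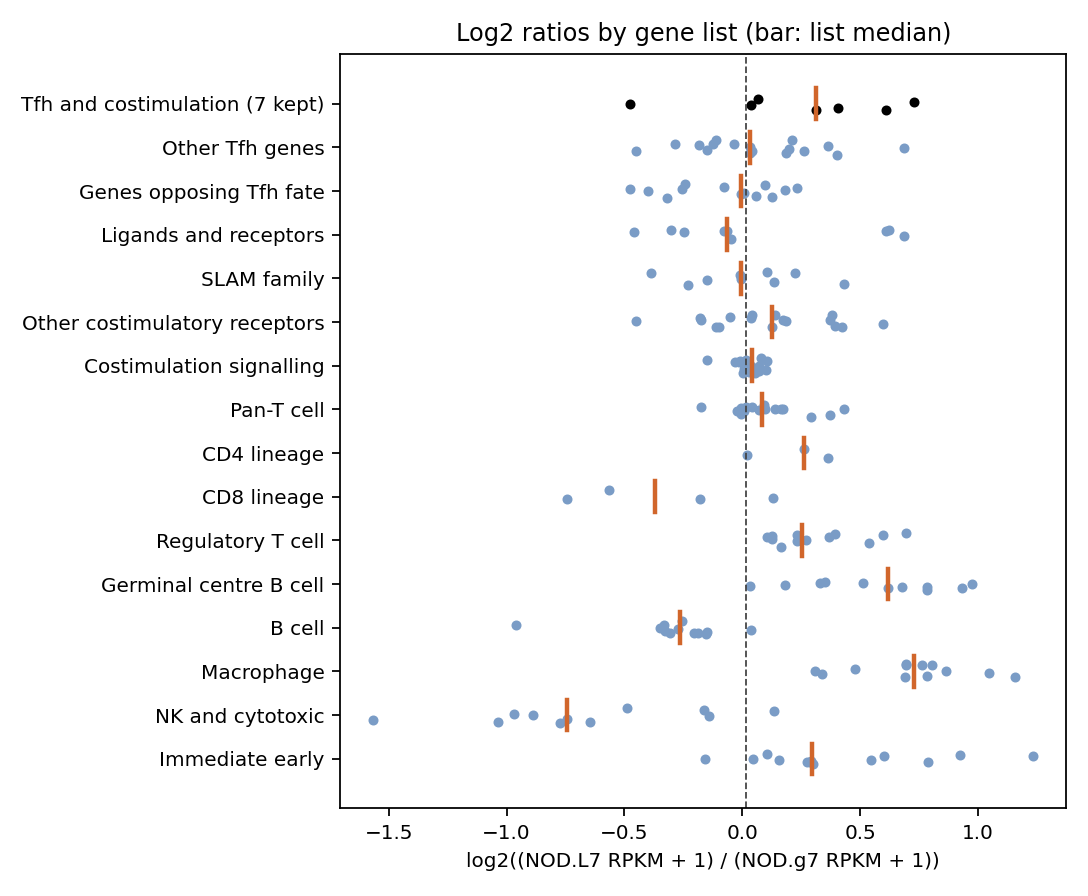
Log2((NOD.L7 RPKM + 1)/(NOD.g7 RPKM + 1)) of each kept gene, by list, with the list median as a bar and the median of all kept genes as the dashed line. The 7 kept follicular helper and costimulation genes run from -0.47 to 0.73 around a median of 0.31, and the pan-T cell genes from -0.18 to 0.43 around 0.08.

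Of the 16 pan-T cell genes 12 were higher and 4 lower in NOD.L7. By the 25% rule 2 were higher, the adaptor genes Lat, at 131 and 169, and Trat1, at 26.6 and 36.3, and none lower. The list had a median log2 ratio of 0.08 and a summed RPKM of 1442 and 1503, with Cd3e at a ratio of 1.01. Outside the range of these 16, from -0.18 to 0.43, lay 3 of the 7 kept genes, Maf and Pdcd1 above and Cd200 below, and 11.8% of all kept genes. Taken relative to the pan-T median, the log2 ratios were 0.65 for Maf, 0.53 for Pdcd1, 0.32 for Icos, 0.23 for Cd40lg and -0.56 for Cd200, while Sh2d1a and Cd28 changed sign, to -0.02 and -0.05.

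Marker lists of T cell subsets and of germinal centre B cells were compared in the same way. The 3 CD4 lineage genes were higher, Cd4 alone by the 25% rule and Gata3 near equal at 8.10 and 8.22, with a median log2 ratio of 0.26 and a summed RPKM of 147 and 184. Of 4 CD8 lineage genes 3 were lower, 2 by the 25% rule, with a median of -0.37, sums of 175 and 129 and Cd8a at 53.7 and 31.7, while Runx3 was higher at 32.1 and 35.3. Regulatory T cells carry Icos, Pdcd1 and Maf as well, and all 12 kept genes of their list were higher, 6 by the 25% rule. That list had a median log2 ratio of 0.25, summed RPKM of 114 and 143, and Foxp3 at 13.4 and 19.9. Of the 11 germinal centre B cell genes all were higher, 9 by the 25% rule, with a median of 0.62 and sums of 69.6 and 88.7. The parts of regulatory and of follicular helper T cells in the Pdcd1, Icos and Maf differences were not tested. Of 8 erythroid markers listed, 7 were found and all 7 were lower, with sums of 118 and 55.1 and a median of -1.45. The smallest difference among them was that of Tfrc, at 16.3 and 14.5.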

How the data were processed

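Whole spleen RNA of 2 libraries was analysed. The authors deposited 1 table of RPKM values per gene. The submitters' processing notes list CASAVA 1.8.2, SAMtools 0.1.18 and build mm9, and the labels' protocols name RNeasy extraction and TruSeq RNA libraries. Not given in the sources used here are the strandedness, the gene models and how multiply mapped reads were treated. RPKM values are not counts, so no count model was used.

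The depth was taken from the steps of low RPKM values in short genes among 755 single-exon genes whose span equalled the GENCODE M21 exon, where RPKM times length came out whole for 100% of 107 and 113 values (within 0.15). Fragments were approximated as 200 bases each, over the longest GENCODE transcript that fits the gene's span in the table. Ratios used a pseudocount of 1 and a filter at RPKM 1. Of 213 entries in 18 gene lists, 212 matched the table, 4 through RefSeq synonyms. Some genes stand in more than 1 list, such as Ctla4 and Tigit (other receptors, regulatory T cells).

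Text names all 8 genes, their partners, up to 4 kept genes per list with the largest absolute log2 ratio, some genes by name and the 3 nearest kept genes on each side. Others named (Lag3, Tnfrsf25, Fyn, Cr2, Prdm1, Madcam1) were chosen after their values were seen, as were the promoter motifs. Alternatives were other pseudocounts, filters and fragment lengths, median centring, a TMM factor and centring on the pan-T cell list. The 8 genes and the lists were chosen with earlier results of these data known. Calculations used Python 3.11.15, pandas 2.3.3 and scipy 1.17.1 and were tested on simulated data. Some genes that the rule names are not reported here.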

Additional observations from a re-analysis of the deposited data

How the results depend on the processing

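With 1 library per genotype no library could be left out, and no setting shows how values vary between mice. No paired analysis was possible because there was only 1 library of either genotype. None of the genes kept passed the size rule under any of the 8 other settings. Il21 was kept only in the 2 settings without a filter. The median log2 ratio of the 7 others ran from 0.23 (relative to the pan-T cell list) to 0.33 (pseudocount of 0.1), and with Il21 it was 0.35 without a filter and 0.39 with a pseudocount of 0.1 as well, a setting added after the data were seen. Under that added setting the log2 ratio of Il21 was 0.95, against 0.39. Sh2d1a and Cd28 took the opposite sign relative to the pan-T list, at -0.02 and -0.05, and fragments of 100 bases put their intervals above 1, at 1.01 to 1.09 and 1.002 to 1.05. Over all genes, 166 passed the size rule with a pseudocount of 0.1, 124 with 0.5, 52 at a filter of RPKM 5 and 431 of 17068 under the added setting, against 79 of 11141. The germinal centre median was 0.35 at the filter of RPKM 5, over 5 genes, against 0.62. Depth limits Il21 most, at about 49 and 142 fragments.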
